A study of Mus musculus with 8 samples.

Results

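The 44 genes described here act in G2 phase and mitosis: the cyclins and kinases of mitotic entry, and the proteins of the spindle, the kinetochore and cytokinesis. They were taken by symbol from a list of such genes, and all 44 were found among the 28792 gene symbols of each table, every one of them above 0 FPKM (fragments per kilobase of transcript, scaled to the library's mapped fragments) in all 4 RNA libraries. The libraries come from hair follicle stem cells, which sit in the bulge and regrow the hair, sorted by flow cytometry from mouse back skin. The first pair are P99 females of strain C57BL6/129Sv that carry K15CrePGR, a Cre recombinase fused to the progesterone receptor and driven by the promoter of the bulge keratin gene Krt15, and the reporter Rosa-YFPfl/stop/fl; the Het library has 1 floxed copy of Ctnnb1, the β-catenin gene (Ctnnb1+/fl), and the cKO library 2 (Ctnnb1fl/fl). The second pair are P24 males of strain C57BL6 with the genotype Axin2LacZ/+, in which LacZ reports the Wnt target gene Axin2; bulge cells from skin between telogen (rest) and anagen (growth) were sorted for LacZ activity (FACS-Gal) into positive and negative cells. For the first pair the labels differ on the stage, which is telogen in the growth protocol but the onset of anagen in the design text. Each of the 4 groups is 1 library, so nothing below has a replicate check or a test, and all differences describe these libraries. The labels do not say whether a library came from 1 mouse or several. The 4 chromatin immunoprecipitation samples of the series were not analysed here.

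As background, a cell enters mitosis when cyclin B and CDK1 become active. Aurora and Polo-like kinases then build the spindle, the checkpoint holds the cell until every kinetochore is attached, and the anaphase promoting complex ends the division by destroying securin and the cyclins. Most genes of this programme are transcribed together in late cell cycle and are silent in resting cells, and so their messages are widely used to read proliferation. Bulge stem cells rest through most of the hair cycle and divide for a short time around the start of anagen.

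Whole-table facts that bear on these values are few. Of the 10 bulge and basal markers checked, all reached 1 FPKM in both pairs; Cd34 stood at 645 FPKM in Het, 752 in cKO, 516 in LacZ-negative and 223 in LacZ-positive cells, and Krt15 is listed at 0 in LacZ-negative cells against 5951 in LacZ-positive cells, where an exact 0 can be a failed estimate. Ctnnb1 stood at 251 FPKM in the Het and 370 in the cKO library. A gene-level value does not resolve the floxed part and runs opposite to a loss, so the libraries are called by their labels. Axin2 stood at 16.3 FPKM in Het and 2.12 in cKO, and at 19 in LacZ-positive versus 9.10 in LacZ-negative cells. FPKM keep no read counts and the absolute depth is unknown. The FPKM ratios of 3435 rows under 0.3 FPKM in both libraries of the first pair gathered at 1.04 and, in log2 steps of 1, on either side of it, the spacing of whole reads; a read was thus worth about the same in both libraries. In the LacZ pair (3116 rows) the gathering was looser, at a LacZ-positive over LacZ-negative ratio of 0.940.

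The first comparison sets stem cells with 2 floxed Ctnnb1 copies against those with 1. Of the 44 mitosis genes, 43 were lower in the cKO than in the Het library (39.1% of all genes that reached 1 FPKM were lower), and 42 of them by 2-fold or more as an FPKM ratio, with a median of 4.32-fold lower over all 44. Among all 17885 genes above 0 in both libraries, 6.94% were lower by 2-fold or more; among the 5928 of these at the level of the 43 genes other than Pttg1 (a mean over the pair between 0.322 and 7.98 FPKM) the share was 7.3%. The median over all genes was a cKO over Het ratio of 1.04. Levels were low: the median mitosis gene stood at 2.33 FPKM in Het and 0.562 in cKO, and the number at 1 FPKM or more went from 37 in Het to 10 in cKO.

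On the scale used for the other counts, the difference of log2(FPKM + 1), which understates changes of low genes, 24 of the 44 were lower by 2-fold or more (a difference of -1 or less) and 0 were higher. Of the 13014 genes that reached 1 FPKM in either library, 2.29% were lower and 1.8% higher by that measure. The 7 members under 1 FPKM in both libraries were Cdc25c, Bub1, Cenpe, Ndc80, Kif15, Kif20b and Kif4; 27 of the other 37 reached 1 FPKM in Het alone and so had to be lower in cKO. The median difference was -1.16 for the 37 and -1.10 for all 44, where all genes that reached 1 FPKM had 0.06. The nearest genes to the line were Tpx2 (-0.98) inside it and Kif11 (-1.06) past it.

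The second comparison sets LacZ-positive against LacZ-negative cells of the same genotype. Here 43 of the 44 mitosis genes were higher in LacZ-positive cells (36.6% of all genes that reached 1 FPKM were), 42 of them by 2-fold or more both as an FPKM ratio and on the log2(FPKM + 1) scale. Of all genes that reached 1 FPKM, 4.67% passed 2-fold upward and 2.6% downward on the latter scale. As an FPKM ratio, 11.2% of all genes above 0 in both libraries were higher by 2-fold or more, and 6.87% of those with a mean between 1.18 and 22.4 FPKM, the range of the 43 genes other than Pttg1. The median mitosis gene went from 1.36 FPKM in LacZ-negative to 8.81 in LacZ-positive cells, and the median FPKM ratio was 6.32-fold. The median log2 difference was 1.91, where all genes that reached 1 FPKM had -0.13. All 44 reached 1 FPKM in LacZ-positive cells and 29 in LacZ-negative cells. The 15 that reached it in LacZ-positive cells alone had to be higher there.

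**Figure D1:**
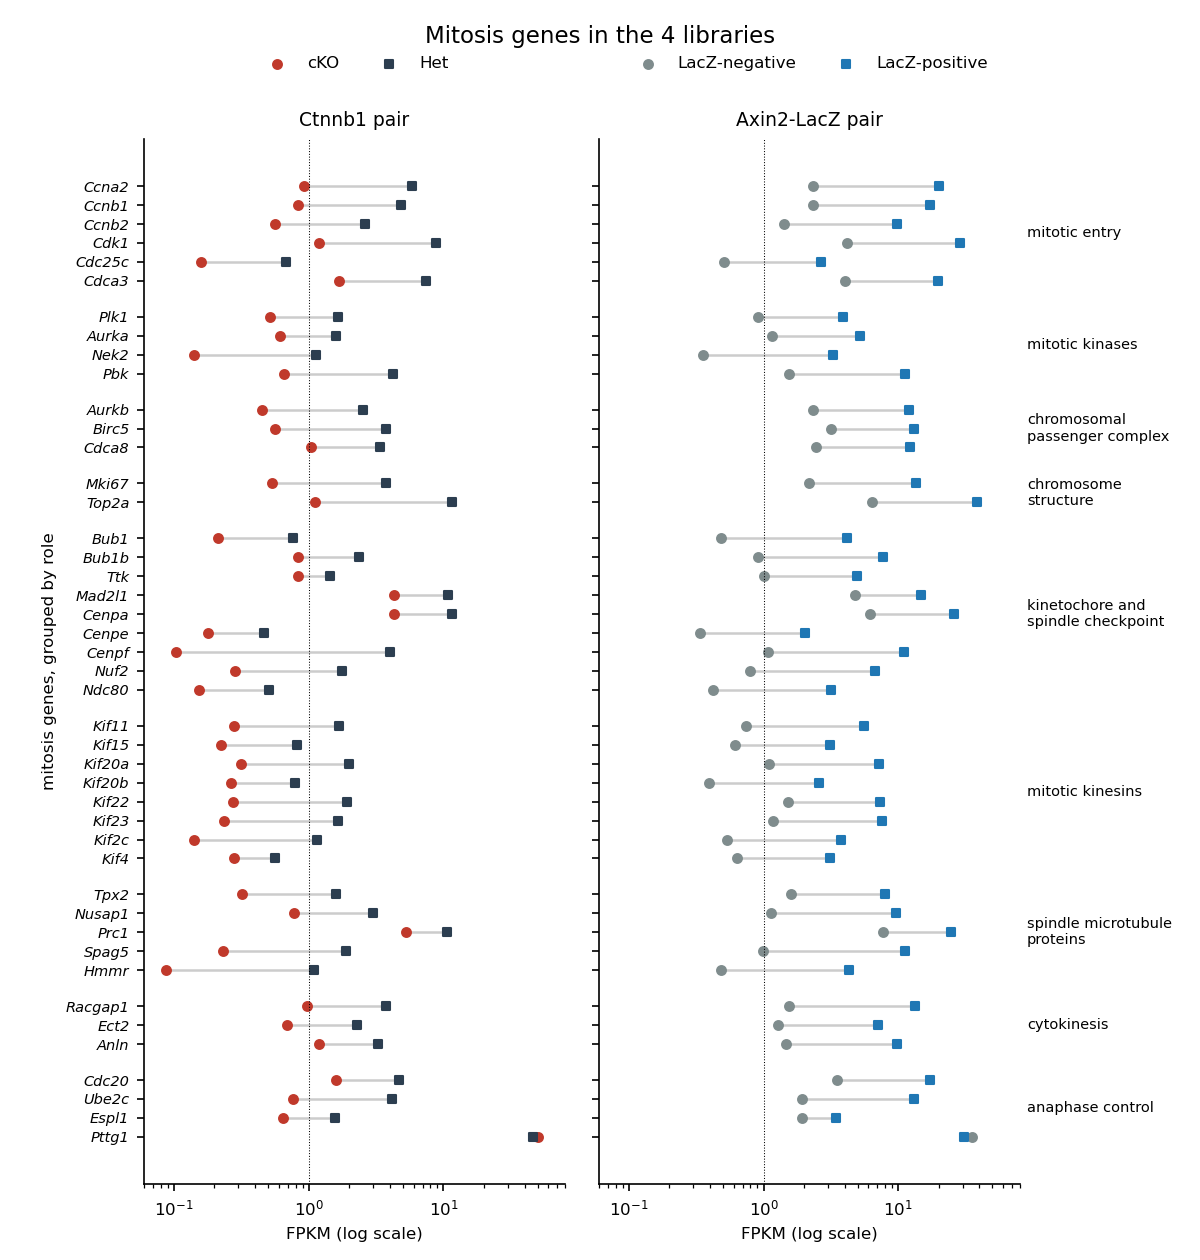
FPKM of each of the 44 mitosis genes on a log axis, grouped by role, in the Ctnnb1 pair (left; circles cKO, squares Het) and the Axin2-LacZ pair (right; circles LacZ-negative, squares LacZ-positive); each point is 1 library, grey lines join the libraries of a pair and the dotted line marks 1 FPKM. In 43 rows the square lies to the right of the circle in both panels, and in the row of Pttg1 it lies to the left.

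Both comparisons had the same genes in opposite directions: 24 mitosis genes were past 2-fold downward in cKO and upward in LacZ-positive cells on the log2(FPKM + 1) scale, a combination held by 0.672% of the 12499 genes that reached 1 FPKM in both pairs. As FPKM ratios the number was 41 of 44, against 2.29% of 16912 genes above 0 in all 4 libraries, and the genes outside it were Ttk, Espl1 and Pttg1. The pairs share no library. Across the 44 genes the log2(FPKM + 1) differences of the pairs had a Pearson r of -0.78 and a Spearman rho of -0.83. As FPKM ratios these were -0.64 and -0.57. These are descriptions across genes, which are not independent replicates; the genes share their libraries and, on the first scale, an effect of level through the pseudocount.

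Set across the 2 tables, which were normalised separately and come from mice of different age, sex and strain, the levels followed 1 order in 41 of 44 genes: LacZ-positive highest, then Het, then LacZ-negative, then cKO. Kif4 and Espl1 had Het below LacZ-negative. Pttg1 was highest in cKO, then Het, then LacZ-negative, and lowest in LacZ-positive cells. Without Pttg1, the FPKM of the other 43 genes summed to 453 in LacZ-positive, 146 in Het, 81.6 in LacZ-negative and 36.8 in cKO, which is 3.98 times as much in Het as in cKO and 5.55 times as much in LacZ-positive as in LacZ-negative cells. The ranking of the genes by level was alike between libraries, with a Spearman rho of 0.96 between Het and LacZ-positive over these 43 genes. Over the same genes rho was 0.90 between LacZ-positive and LacZ-negative, 0.79 between Het and cKO and 0.76 between cKO and LacZ-positive. In such sorted populations fewer dividing cells and less mRNA in each dividing cell cannot be told apart.

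**Figure D2:**
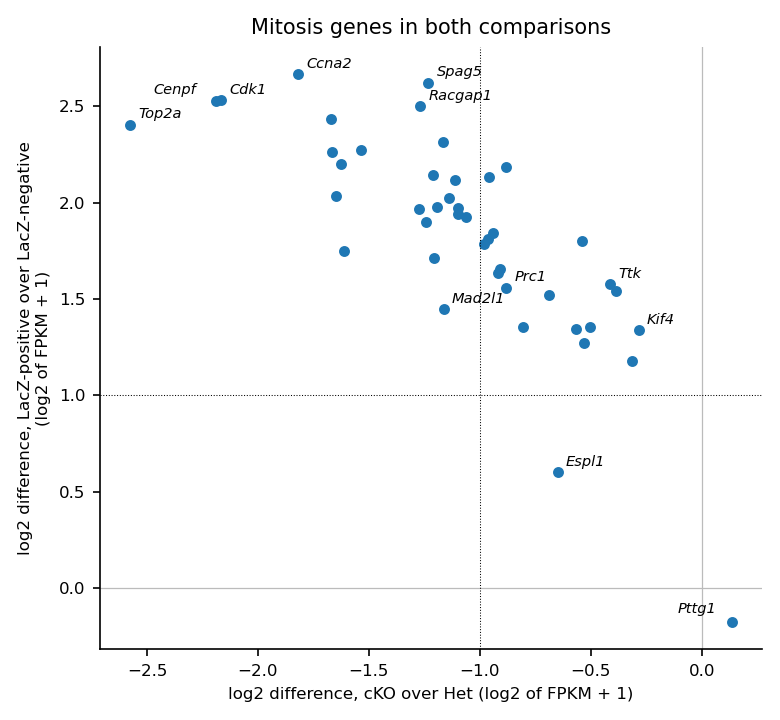
Difference of log2(FPKM + 1) in the Ctnnb1 pair (horizontal, cKO over Het) against the Axin2-LacZ pair (vertical, LacZ-positive over LacZ-negative); each point is 1 of the 44 mitosis genes and dotted lines mark 2-fold. The 24 genes at the upper left are past the line in both pairs, Espl1 (-0.65 and 0.60) lies inside it in both, and Pttg1 (0.14 and -0.18) lies near 0.

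Because the genes differed together, the sequence around their starts was read from the RefSeq promoter table (GRCm38.p6), which gives 250 bases before to 50 after the start for 38 of the 44; Ccna2, Cdc25c, Pbk, Aurkb, Kif20a and Tpx2 had no entry. The first motif searched was TTTGAA, the core of the cell cycle genes homology region (CHR), which the MuvB complex reads in late cell cycle promoters. The second was CCAAT, the core of the box bound by NF-Y. Both were searched on both strands; on the opposite strand the first reads TTCAAA, while the second appears as ATTGG. Of the 38 promoters, the first motif was present in 29 (76.3%) and in 20.2% of the 27025 genes in the table. CCAAT was present in 28 of 38 (73.7%) and in 41.1% of all genes, and both in 24 of 38 (63.2%) and 8.97% of all. A match describes these letters and is not a site.

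Printed from 200 bases before to 20 after the start on the gene's strand, with both motifs in capitals, are first the 4 genes with the largest difference in either pair that hold both, which show how the motifs sit near the start.
Spag5 (chr11:78301391-78301610, plus strand): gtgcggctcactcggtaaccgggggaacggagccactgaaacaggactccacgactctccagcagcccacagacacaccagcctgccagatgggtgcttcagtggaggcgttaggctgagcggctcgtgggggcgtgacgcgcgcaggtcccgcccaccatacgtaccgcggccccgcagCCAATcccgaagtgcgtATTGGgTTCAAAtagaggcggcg
Top2a (chr11:99024170-99024389, minus strand): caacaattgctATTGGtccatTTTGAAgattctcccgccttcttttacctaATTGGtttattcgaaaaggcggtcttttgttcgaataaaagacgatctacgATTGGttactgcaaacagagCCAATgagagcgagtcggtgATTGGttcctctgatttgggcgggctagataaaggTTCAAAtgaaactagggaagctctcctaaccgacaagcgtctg
Cdk1 (chr10:69352893-69353112, minus strand): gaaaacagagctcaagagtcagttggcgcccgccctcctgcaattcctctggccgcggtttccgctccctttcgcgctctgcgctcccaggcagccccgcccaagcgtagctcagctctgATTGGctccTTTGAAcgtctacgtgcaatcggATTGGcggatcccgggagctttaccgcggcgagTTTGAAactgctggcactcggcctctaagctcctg
Cenpf (chr1:189688067-189688286, minus strand): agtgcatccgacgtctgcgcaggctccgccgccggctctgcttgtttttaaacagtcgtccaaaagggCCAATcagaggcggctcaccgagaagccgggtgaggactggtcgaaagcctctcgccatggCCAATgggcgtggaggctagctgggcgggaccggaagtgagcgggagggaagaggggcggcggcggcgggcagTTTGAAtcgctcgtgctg
In these 4 promoters the TTTGAA core nearest the start begins at position 4 in Spag5, -23 in Top2a, -15 in Cdk1 and 3 in Cenpf, counted from the start as 1, with at least 1 CCAAT core ahead of it.

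The next pair, the members with the largest differences that hold neither motif, show that not all genes past 2-fold share the letters. Pttg1 and Espl1, added after their values were seen, are the members inside 2-fold in the LacZ pair.
Nusap1 (chr2:119618098-119618317, plus strand): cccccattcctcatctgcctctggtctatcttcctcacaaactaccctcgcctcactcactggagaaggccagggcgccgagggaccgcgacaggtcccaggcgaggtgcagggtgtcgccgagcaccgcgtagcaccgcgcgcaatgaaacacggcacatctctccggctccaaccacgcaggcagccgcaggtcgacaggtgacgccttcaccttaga
Nuf2 (chr1:169531445-169531664, minus strand): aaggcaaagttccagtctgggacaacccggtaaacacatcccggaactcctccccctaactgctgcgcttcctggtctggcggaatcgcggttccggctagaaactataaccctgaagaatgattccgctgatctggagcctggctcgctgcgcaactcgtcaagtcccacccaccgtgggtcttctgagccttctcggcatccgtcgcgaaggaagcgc
Pttg1 (chr11:43425962-43426181, minus strand): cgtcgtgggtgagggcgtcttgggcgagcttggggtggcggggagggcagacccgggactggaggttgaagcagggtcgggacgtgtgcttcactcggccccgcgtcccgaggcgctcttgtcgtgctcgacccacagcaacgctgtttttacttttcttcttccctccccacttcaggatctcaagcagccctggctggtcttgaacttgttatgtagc
Espl1 (chr15:102296093-102296312, plus strand): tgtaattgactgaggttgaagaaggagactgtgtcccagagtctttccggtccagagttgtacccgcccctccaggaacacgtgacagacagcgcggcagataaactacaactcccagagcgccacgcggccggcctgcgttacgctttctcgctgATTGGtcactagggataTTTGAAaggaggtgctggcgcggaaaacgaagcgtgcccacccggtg
Pttg1 holds neither motif in its window, and so do Birc5, Mad2l1, Nuf2 and Nusap1, all 4 of which were past 2-fold in both pairs; Espl1 holds both. Over the 38 genes, the median FPKM ratio was -1.85 on the log2 scale in the first pair and 2.64 in the second for the 29 with TTTGAA, and -1.95 and 2.87 for the 9 without it. Genes with and without TTTGAA differed by similar amounts. The letters TTTAAA, also searched, were in 9 of 38 mitosis promoters (23.7%, against 14.9% of all). Among these were Ccnb1, Birc5 and Cenpe, which lack TTTGAA.

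The position of the motifs was narrower than their presence. In the 50 bases after the start 47.4% of the mitosis promoters had a TTTGAA beginning there, against 2.64% of all, and in the 50 bases before it 23.7% against 3.30%. From 51 to 250 bases before the start each 50-base bin held it in 5.26% to 7.89% of mitosis promoters and 3.92% to 4.8% of all. CCAAT was most frequent in the 50 bases before the start (52.6% against 10.5%) and the 50 before those (44.7% against 14.4%). Of the other lists, TTTGAA was in 23 of 48 other mitosis genes with an entry (47.9%), 2 of 20 DNA replication genes, 3 of 20 other kinesins, 7 of 17 regulators (41.2%), 1 of 12 anaphase promoting complex subunits and 0 of 7 G1 genes. CCAAT was in 34 of 48 other mitosis genes (70.8%), 14 of 20 DNA replication genes, 7 of 20 other kinesins, 10 of 17 regulators, 5 of 12 subunits and 4 of 7 G1 genes. The letters CTTTGAA and CTTTGAT, forms of the motif read by TCF and LEF factors of the Wnt pathway, were added after the first results were seen. CTTTGAA was in 3 of 38 mitosis promoters (7.89%, against 5.93% of all) and contains TTTGAA, so these 3 also count there; CTTTGAT was in 2 (5.26%, against 4.29%).

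**Figure D3:**
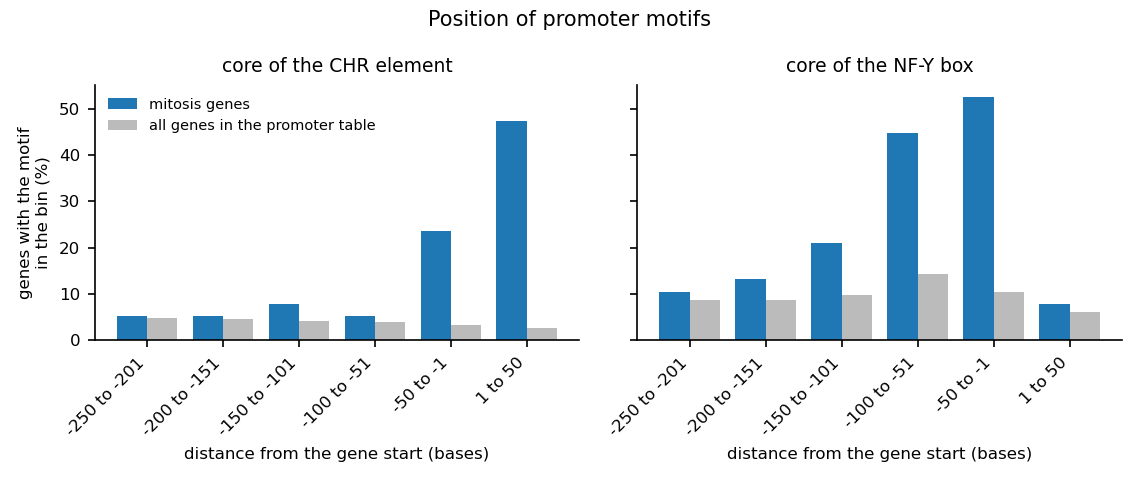
Share of genes whose promoter has the core of the CHR element (left) or of the NF-Y box (right) beginning in each 50-base bin, by distance from the gene start, in the 38 mitosis genes (blue) and in all 27025 genes of the promoter table (grey); a gene can count in several bins. The blue bars are highest at 47.4% after the start for the CHR core and at 52.6% just before it for the NF-Y box.

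The 6 genes of mitotic entry were all lower in cKO and higher in LacZ-positive cells. Cdk1 (ENSMUSG00000019942, mm9 chromosome 10, 68799382 to 68815686), the kinase that drives entry, stood at 8.84 FPKM in Het and 1.19 in cKO, and at 28.8 in LacZ-positive versus 4.15 in LacZ-negative cells. That is 7.43-fold lower in cKO and 6.94-fold higher in LacZ-positive cells, so the pairs differed by nearly the same factor. Ccna2, the cyclin of S and G2 phase, stood at 5.80 FPKM in Het, 0.926 in cKO, 20.1 in LacZ-positive versus 2.33 in LacZ-negative cells. Ccnb1, the main mitotic cyclin, stood at 4.86, 0.840, 17.1 and 2.34 FPKM in the same order of libraries. Its relative Ccnb2 was lower throughout, at 2.62, 0.563, 9.71 and 1.42. Cdca3, a protein that promotes mitotic entry, stood at 7.38, 1.67, 19.6 and 4.02 FPKM. The phosphatase gene Cdc25c, which activates CDK1, was the lowest of the 6, at 0.678 FPKM in Het and 0.160 in cKO and at 2.65 in LacZ-positive versus 0.51 in LacZ-negative cells. All 6 were lower in cKO by 4.23-fold to 7.43-fold and higher in LacZ-positive cells by 4.87-fold to 8.64-fold.

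Mitotic kinases varied more in level than in direction. Pbk, a kinase of dividing cells, stood at 4.25 FPKM in Het, 0.652 in cKO, 11.2 in LacZ-positive versus 1.55 in LacZ-negative cells. Plk1, the Polo-like kinase, stood at 1.65, 0.514, 3.86 and 0.904, and Aurka, the spindle pole Aurora kinase, at 1.60, 0.616, 5.17 and 1.15. Nek2, a kinase of centrosome separation, was near the floor in cKO at 0.141 FPKM against 1.14 in Het, 8.11-fold lower, and stood at 3.27 and 0.358 in the LacZ pair, 9.15-fold higher. Only Pbk of the 4 was past 2-fold on the log2(FPKM + 1) scale in the first pair, at -1.67; Nek2 was at -0.91, Plk1 at -0.81 and Aurka at -0.69.

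The chromosomal passenger complex corrects faulty attachments and later sets the place of cytokinesis. Its kinase gene Aurkb stood at 2.52 FPKM in Het and 0.452 in cKO, Birc5, the survivin gene, at 3.77 and 0.560, and Cdca8, the borealin gene, at 3.37 and 1.04. In LacZ-positive cells the 3 stood at 12.1, 13.1 and 12.2 FPKM, and in LacZ-negative cells at 2.35, 3.18 and 2.44. The order of the 3 partners by level was not the same in the libraries: Cdca8 was highest in cKO and Birc5 in the other 3.

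Of the genes of chromosome structure, Top2a, the topoisomerase that untangles sister chromatids, was the highest member in LacZ-positive cells. It stood at 38.3 FPKM there and 6.42 in LacZ-negative cells, and at 11.6 in Het and 1.11 in cKO (ENSMUSG00000020914, mm9 chromosome 11, 98854256 to 98885503). Its cKO value was 10.4-fold lower, the third-widest ratio of the 44 after Cenpf and Hmmr. Mki67, the gene of the proliferation antigen Ki-67, stood at 3.73 FPKM in Het and 0.534 in cKO, 6.99-fold lower. In the LacZ pair it stood at 13.6 and 2.19 FPKM, 6.24-fold higher in LacZ-positive cells.

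Kinetochore and checkpoint genes included the member with the widest ratio of the first pair. Cenpf, a large protein of the outer kinetochore (ENSMUSG00000026605, mm9 chromosome 1, 191464477 to 191511965), stood at 4.04 FPKM in Het and 0.103 in cKO, a 39.0-fold lower value. The LacZ libraries had 11 and 1.08 FPKM, 10.2-fold higher. Cenpa, the centromeric histone, and Mad2l1, the checkpoint effector, had the highest levels of this group in cKO, at 4.33 and 4.30 FPKM against 11.6 and 10.9 in Het, and were only 2.69-fold and 2.53-fold lower. They stood at 25.8 and 14.8 FPKM in LacZ-positive cells and at 6.16 and 4.81 in LacZ-negative cells.

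The 3 checkpoint kinase genes had wider ratios in the LacZ pair than in the first. Bub1b stood at 2.38 FPKM in Het and 0.832 in cKO, and Bub1 at 0.761 and 0.213, 2.86-fold and 3.57-fold lower. In LacZ-positive cells they were 8.44-fold and 8.6-fold higher. Ttk, the kinase that starts the checkpoint, had the smallest ratio in the first pair after Pttg1, with 1.45 FPKM in Het and 0.840 in cKO (1.73-fold), and stood at 4.97 and 1.00 FPKM in the LacZ pair (4.96-fold). The microtubule-binding pair Nuf2 and Ndc80 stood at 1.77 and 0.508 FPKM in Het, 0.283 and 0.154 in cKO, 6.77 and 3.15 in LacZ-positive versus 0.794 and 0.424 in LacZ-negative cells. Cenpe, a kinetochore motor, was the lowest member in 3 of 4 libraries, at 0.465 FPKM in Het, 0.180 in cKO, 2.03 in LacZ-positive versus 0.336 in LacZ-negative cells.

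The 8 mitotic kinesins, motors that separate spindle poles, move chromosomes or bundle the midzone, were all low in Het (0.558 to 2.01 FPKM) and lower still in cKO (0.141 to 0.315 FPKM). Kif11, which pushes the poles apart, stood at 1.68 FPKM in Het, 0.281 in cKO, 5.58 in LacZ-positive versus 0.736 in LacZ-negative cells. Kif23 and Kif20a, motors of the midzone, stood at 1.65 and 2.01 FPKM in Het and 0.237 and 0.315 in cKO, and at 7.58 and 7.23 in LacZ-positive versus 1.19 and 1.09 in LacZ-negative cells. Kif2c, which takes microtubules apart at kinetochores, had the widest ratio of the group in the first pair, 8.2-fold, from 1.16 to 0.141 FPKM. Kif22 was 7.07-fold, Kif15 3.62-fold and Kif20b 2.99-fold lower in cKO. Kif4, a chromosome-bound motor, had the narrowest, 2.00-fold, from 0.558 to 0.279 FPKM. In LacZ-positive cells the 8 were 4.77-fold to 7.58-fold higher.

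Other kinesin genes were described for comparison. Of 27 such genes, 18 reached 1 FPKM in the first pair. None of these was past 2-fold on the log2(FPKM + 1) scale, with a median of 0.15. As FPKM ratios, 3 of the 25 above 0 in both libraries were higher in cKO by 2-fold or more, among them Kif26a (1.45 against 0.659 FPKM), and 0 were lower. Among the LacZ libraries 18 also reached it, with a median of -0.24; Kif26a (1.8 FPKM in LacZ-positive against 5.16 in LacZ-negative cells) was the single one past 2-fold on that scale. By ratio 3 of 24 were lower and 3 higher by 2-fold or more, with Kif7 at 2.93 FPKM in LacZ-positive against 6.39 in LacZ-negative cells and Kif24 at 1.69 against 0.404.

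Spindle microtubule proteins included Spag5, the astrin gene, with the widest ratio of all members in the LacZ pair. It stood at 11.3 FPKM in LacZ-positive cells and 0.996 in LacZ-negative cells, 11.3-fold higher, and at 1.89 in Het and 0.232 in cKO, 8.18-fold lower. Hmmr, a spindle protein also known as a hyaluronan receptor, had the lowest value of any member in any library, 0.0868 FPKM in cKO against 1.09 in Het, and stood at 4.31 and 0.482 in the LacZ pair. Nusap1 and Tpx2, which nucleate and bundle spindle microtubules, stood at 2.98 and 1.60 FPKM in Het and 0.772 and 0.319 in cKO. In the LacZ pair they stood at 9.66 and 7.95 FPKM in positive and 1.14 and 1.60 in negative cells. Prc1, the midzone crosslinker, also kept a level in cKO, at 10.6 FPKM in Het and 5.26 in cKO, 2.00-fold lower, and at 24.8 and 7.75 in the LacZ pair.

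Of the cytokinesis genes, Racgap1, a subunit of centralspindlin, stood at 3.75 FPKM in Het, 0.969 in cKO, 13.3 in LacZ-positive versus 1.53 in LacZ-negative cells. Ect2, the activator of RhoA at the cleavage furrow, stood at 2.29, 0.687, 7.03 and 1.29 FPKM in the same order, and the furrow scaffold gene Anln at 3.24, 1.19, 9.86 and 1.47. All 3 were wider apart in the LacZ pair (5.46-fold to 8.69-fold) than in the first pair (2.74-fold to 3.86-fold). Of the 43 genes other than Pttg1, 12 had a wider ratio in the first pair than in the LacZ pair, among them Cenpf, Top2a, Hmmr, Birc5 and Kif22, but the sizes were not tested against each other.

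Anaphase control genes held the exceptions. Cdc20, the activator that turns the anaphase promoting complex on, stood at 4.71 FPKM in Het, 1.59 in cKO, 17.3 in LacZ-positive versus 3.48 in LacZ-negative cells, and Ube2c, its ubiquitin-conjugating enzyme, at 4.12, 0.769, 13.2 and 1.93. Pttg1 (ENSMUSG00000020415, mm9 chromosome 11, 43233751 to 43239753), the gene of securin, which holds separase inactive until anaphase, stood at 46.0 FPKM in Het, 50.7 in cKO, 30.9 in LacZ-positive versus 35 in LacZ-negative cells. Its log2 differences were 0.14 and -0.18, and it was the highest mitosis gene in 3 of 4 libraries; in cKO it made up 58.0% of the summed FPKM of the 44. Espl1, the gene of separase itself, stood at 1.58 FPKM in Het and 0.644 in cKO, 2.45-fold lower, and at 3.43 and 1.92 in the LacZ pair, 1.79-fold higher.

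Subunits of the anaphase promoting complex itself were near level. All 13 subunits and cofactors listed reached 1 FPKM in both pairs and none was past 2-fold in either, with medians of -0.0036 and -0.23. The widest were Anapc13, at 118 FPKM in cKO and 92.6 in Het, and Anapc4, at 33.1 in LacZ-positive versus 47.6 in LacZ-negative cells.

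Some members lie in intervals that the tables give to several genes, where reads of neighbours can enter a value; 30 of the 44 are alone in theirs. Of these 30, 27 reached 1 FPKM in the first pair and 16 were lower by 2-fold or more in cKO. In the LacZ pair 28 of 30 were past 2-fold upward. Among all genes alone in their interval that reached 1 FPKM, 131 of 7596 were lower by 2-fold or more in cKO. The LacZ pair had 315 of 7761 such genes past 2-fold upward. Neighbours of the other 14 members included level genes and rows that differed with the member or against it. Exosc9, beside Ccna2, stood at 19.7 FPKM in Het, 22 in cKO, 24.6 in LacZ-positive versus 29.4 in LacZ-negative cells. Cdc23, beside Kif20a, stood at 31.0, 30.1, 33.0 and 29.4 FPKM, and Pdzd11, beside Kif4, at 20.7, 20.8, 23.7 and 30.7. Small RNA rows in such intervals were uneven: SNORA42, beside Top2a, stood at 26.3 FPKM in LacZ-positive against 7.13 in LacZ-negative cells and is listed at 0 in the first pair, n-R5s25, beside Kif20a, at 10.9 against 0, and 5S_rRNA, beside Ndc80, at 7.80 against 0. In the first pair n-R5s25 stood at 5.58 FPKM in cKO against 0 in Het. SNORA32, also beside Top2a, stood at 6.25 in cKO against 3.01 in Het, and both ran opposite to the member. Oip5, which shares the interval of Nusap1 and is itself a centromere gene, stood at 1.15, 0.284, 2.48 and 0.797.

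Other mitosis genes, a list of 60 of which 58 are in the tables, had the direction of the 44 with smaller differences. In the first pair 40 reached 1 FPKM, 36 were lower, 10 of them past 2-fold on the log2(FPKM + 1) scale, and the median was -0.57. As FPKM ratios, 37 of the 58 were lower by 2-fold or more, with a median log2 ratio of -1.55. Ncapg, a condensin subunit gene, stood at 0.345 FPKM in cKO and 2.85 in Het, Melk, a kinase gene of dividing cells, at 0.0556 and 1.74, and the spindle motor gene Kifc1 at 0.341 and 2.38. In the LacZ pair 56 reached it, 52 were higher, 34 of them past 2-fold, and the median was 1.19; by ratio 41 of 58 were higher by 2-fold or more. Zwilch, of the complex that recruits the checkpoint, in an interval shared with another gene, stood at 13.6 FPKM in LacZ-positive cells and 1.99 in LacZ-negative cells, and Depdc1a at 4.57 and 0.197.

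Of the 22 regulators of mitotic gene transcription, 4 were lower in cKO by 2-fold or more as an FPKM ratio, and 6 were higher and 1 lower in LacZ-positive cells. Foxm1, the forkhead factor of G2 phase, stood at 2.08 FPKM in Het and 0.457 in cKO, and at 10.3 in LacZ-positive versus 0.995 in LacZ-negative cells, in an interval it shares with other genes. Mybl2, the B-Myb gene, stood at 1.13 and 0.279 FPKM in the first pair and at 2.58 and 1.03 in the LacZ pair. On the log2(FPKM + 1) scale Foxm1 (-1.08) was the single one of 19 past 2-fold in the first pair, and Foxm1 (2.51) and E2f8 (1.08) of 21 in the second. The list's medians were -0.06 and 0.05.

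DNA replication genes, which act in S phase, differed in the same direction by less. Of 25, 24 reached 1 FPKM in the first pair, 21 were lower, Uhrf1 alone past 2-fold on the log2(FPKM + 1) scale (2.20 FPKM in cKO against 6.12 in Het), and the median was -0.30. By ratio 4 of 25 were lower by 2-fold or more: Uhrf1, Mcm5 (2.74 against 6.12 FPKM), Chaf1b (1.38 against 3.18) and Mcm10 (0.148 against 0.731). Between the LacZ libraries 24 of 25 were higher, 11 of them past 2-fold (12 by ratio), and the median was 0.78. Mcm2, of the replicative helicase, stood at 5.27 FPKM in Het, 2.95 in cKO, 12.7 in LacZ-positive versus 4.90 in LacZ-negative cells. Of the 10 G1 cyclins, kinases and inhibitors, none was past 2-fold on the log2(FPKM + 1) scale in the first pair (median -0.09). Ccnd2, a D-type cyclin gene, was past it in the second (43.0 FPKM in LacZ-positive against 19.1 in LacZ-negative cells), where the median was 0.10. By ratio, 1 of the 10 was higher by 2-fold or more in cKO and 0 were lower. In LacZ-positive cells 2 were higher and 1 lower by that measure. Ccnd1 stood at 23.8 FPKM in cKO against 42.2 in Het. Of the 4 inhibitor genes, Cdkn1c (9.88 FPKM in cKO against 4.65 in Het) and Cdkn1a (31.1 against 18.1) were higher in cKO, and Cdkn1b (74.4 against 88.5) and Cdkn2c (2.97 against 5.55) lower. Between the LacZ libraries Cdkn1a (48.4 FPKM in LacZ-positive against 27.2 in LacZ-negative cells) and Cdkn2c (10.6 against 5.09) were higher in LacZ-positive cells, and Cdkn1b (99.9 against 140.5) and Cdkn1c (0.214 against 0.814) lower. Reference genes had medians of 0.20 and -0.18 with none of 10 past 2-fold in either pair.

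**Figure D4:**
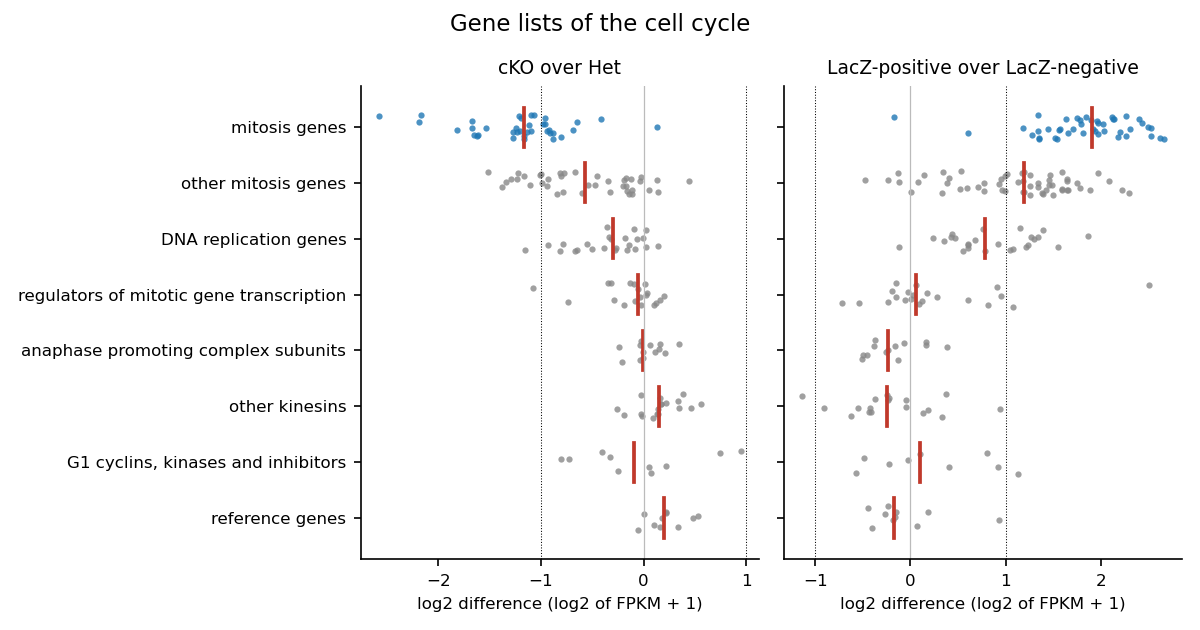
Difference of log2(FPKM + 1) for genes of 8 lists that reached 1 FPKM in either library of the pair, cKO over Het at the left and LacZ-positive over LacZ-negative at the right; each point is 1 gene, red bars are list medians, point height within a row is random, and dotted lines mark 2-fold. The mitosis genes have the outermost medians, -1.16 and 1.91, and the reference genes 0.20 and -0.18.

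Some markers of other cells stood above many of the mitosis genes. Of the 8 leukocyte markers, 2 reached 1 FPKM in each pair; the list summed to 8.83 FPKM in cKO and 5.67 in Het, and to 6.09 in LacZ-positive versus 3.71 in LacZ-negative cells, with Ptprc, the defining pan-leukocyte gene, at or under 0.0696 FPKM in all 4 libraries. Cd68, a macrophage marker, stood at 5.2 FPKM in cKO, 2.39 in Het, 1.02 in LacZ-positive versus 1.90 in LacZ-negative cells, and Cd74, of antigen-presenting cells, at 2.92, 2.37, 3.26 and 1.30. The 6 fibroblast markers summed to 23.1 FPKM in cKO, 14.8 in Het, 10.9 in LacZ-positive versus 18.1 in LacZ-negative cells. Of these, Col1a1 stood at 10.3, 3.72, 6.29 and 13.1 FPKM in that order, and Col1a2 at 12.5, 10.8, 2.38 and 4.34. Dcn stood at 0.102, 0.0445, 2.16 and 0.423, so it was higher in LacZ-positive cells where Col1a1 and Col1a2 were lower. No endothelial marker reached 1 FPKM. The 6 melanocyte markers summed to 45 FPKM in cKO and 46.9 in Het and to 26.9 and 27.7 in the LacZ pair, most of it Mitf and Dct, with Tyr at or under 0.119. The 7 muscle, adipocyte and blood markers summed to 3.90 and 4.98 FPKM in cKO and Het and to 20.6 and 19.3 in LacZ-positive and LacZ-negative cells, nearly all of it Hba-a1. The part of these cells in the mitosis values was not tested.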

How the data were processed

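Sorted hair follicle stem cells were profiled by RNA sequencing, with 1 library in each of 4 groups taken from the sample labels. The authors deposited 2 tables of 32091 rows, 1 per pair, holding FPKM per the file headers. The first also has the authors' own log2 column for cKO against Het, which equals the log2 FPKM ratio within 0.01 in all 44 member rows and is otherwise not used. Cufflinks 2.1.1, TopHat2 2.0.4, TopHat and the builds mm9 and GRCm38 appear, without roles, in the submitters' processing notes; how reads were filtered or assigned to strands is not stated there. Table coordinates are taken as mm9. FPKM divide by a library total, so a few abundant features can shift all values.

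Rows of a symbol were summed, after 25 symbols turned into dates were restored from their Ensembl identifiers. Genes needed 1 FPKM in at least 1 library of a pair, and differences of log2(FPKM + 1) were counted at 2-fold; FPKM ratios used no pseudocount. With 1 library per group no test was made. Members and the gene lists were chosen with earlier results of these data known. All 44 members are named; from each pathway list the rule allowed the 4 genes with the largest difference in a pair, of which some are given, with Foxm1, Mybl2 and Mcm2, and the highest and the defining markers. Neighbours of members, Cdkn1b, Dcn, Cdkn1c in the LacZ pair and Mcm10 in the first were chosen after their values were seen, as were the ratio scale and the TCF motifs. Shares of promoters count genes with a match at any listed start. The counting of differences was run on simulated pairs without noise, which left out low genes and held planted changes larger than 2-fold. Finding these was fixed by construction, so the run checks the code and says nothing of the values here. Python 3.11.15, pandas 2.3.3 and numpy 2.4.6 were used.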

Additional observations from a re-analysis of the deposited data

How the results depend on the processing

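Each value was recomputed with a pseudocount of 0.1 or 5, without the minimum or with 5 FPKM, after centring on the median or scaling to the upper quartile, with 1 row per symbol, and over genes above 0 or alone in their interval only. FPKM ratios, a minimum on the mean of the 4 libraries and leaving out Pttg1 were chosen after seeing the data. No sign turned in the 81 single-gene values under any of these. A change of pseudocount, of minimum or of the genes kept cannot turn a sign. Centring and scaling could have done so. Taking 1 row per symbol left the counts and medians of both pairs unchanged. A pseudocount of 5 lowered the number of mitosis genes past 2-fold in cKO from 24 to 2, in LacZ-positive cells from 42 to 25 and in both from 24 to 2, and the first pair's median to -0.45; a larger pseudocount shrinks the differences of low genes by construction. A minimum of 5 FPKM left 8 members in the first pair, of which 6 were lower by 2-fold or more, and all 6 were past the line in both pairs. These 6 reached 5 FPKM in Het alone and so had to be lower in cKO. Prc1 and Pttg1, which reached it in both libraries, were inside the line on the log2(FPKM + 1) scale. Otherwise the medians ran from -2.42 to -1.10 in the first pair; in the LacZ pair all alternatives gave 1.02 to 2.66. With a window from 100 bases before the start, 73.7% of mitosis promoters held TTTGAA (9.23% of all) and 68.4% CCAAT (26.3% of all). No paired analysis was possible because each group has 1 library. Depth is unknown, so values near 0.1 FPKM, such as those of Cenpf and Hmmr in cKO, may rest on few reads and their ratios have no interval.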
